A study of Mus musculus with 2 samples.

Results

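Zfp36, Zfp36l1 and Zfp36l2 are the mouse genes of the ZFP36 family of mRNA decay factors examined here, 3 of 21536 protein-coding genes with a usable transcription start site (TSS). They were described by the MEF2A binding peaks whose summit lay in the gene or within 300 kb of its TSS. The genes were selected on the strength and number of these same peaks, so the values below are a description and no test was applied to them. The 300 kb window sets a low bar: 87.4% of all protein-coding genes had such a peak.

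ZFP36 proteins carry CCCH zinc fingers that bind AU-rich elements in mRNAs, and they bring the CCR4-NOT deadenylase to the bound transcript, which shortens its poly(A) tail and leads to decay. ZFP36, also called tristetraprolin, is best known for limiting Tnf mRNA, and its gene is an immediate early gene. ZFP36L1 and ZFP36L2 are known in lymphocytes for holding developing cells in quiescence during antigen receptor gene rearrangement. MEF2A is a MADS-box transcription factor that recognises an AT-rich DNA element.

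The data came from chromatin immunoprecipitation with an antibody to MEF2A followed by sequencing (ChIP-seq) in CH12.LX, an immortalized mouse B cell lymphoma line of strain B10.H-2aH-4bp/Wts. All samples formed 1 group, with no treatment named, of 2 biological replicates from separate biosamples of 1 donor. CH12.LX is a single line, so the peaks describe that line and not B cells in general. The peak lists carry a signal value for each peak, given by the authors, and a rank of 1 below means the strongest peak of a list. Signals were compared only within a list, and read depth is unknown.

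Sequences under the peaks are shown first, to let the motif matches be read beside the peaks. They are 101 bp windows centred on peak summits of the mm9 list, read on the plus strand of mm9 and lying outside annotated exons, with a matched motif in capitals. Zfp36 is represented by its strongest peak, whose capitals mark a MEF2 core, and by its peak beside the TSS, which matched none of 20 motifs searched.
Zfp36 strongest peak, chr7:29167159-29167259: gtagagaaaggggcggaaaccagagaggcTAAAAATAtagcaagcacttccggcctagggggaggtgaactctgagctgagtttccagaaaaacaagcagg
Zfp36 TSS peak, chr7:29164343-29164443: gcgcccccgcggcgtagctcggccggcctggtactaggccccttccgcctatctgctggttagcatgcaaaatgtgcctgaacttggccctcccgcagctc
Zfp36l1 is represented by its strongest peak, which matched no motif, by the second strongest and the peak in Dcaf5, which hold the full MEF2 consensus, and by the fifth strongest, which holds a MEF2 core that begins at the summit base. A peak upstream of Zfp36l1 was chosen because it carries an ETS-IRF composite element on both strands, pointing away from each other. The peak beside the TSS was chosen because it was present on mm9 only.
Zfp36l1 strongest peak, chr12:80941528-80941628: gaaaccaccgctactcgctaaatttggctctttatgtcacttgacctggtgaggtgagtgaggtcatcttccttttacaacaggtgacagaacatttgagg
Zfp36l1 second peak, chr12:81102812-81102912: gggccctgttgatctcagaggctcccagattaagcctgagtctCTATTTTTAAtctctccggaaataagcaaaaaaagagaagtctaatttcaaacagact
Zfp36l1 core peak, chr12:81105783-81105883: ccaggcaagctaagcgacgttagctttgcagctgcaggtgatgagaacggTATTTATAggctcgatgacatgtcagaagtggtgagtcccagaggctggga
Zfp36l1 Dcaf5 peak, chr12:81461393-81461493: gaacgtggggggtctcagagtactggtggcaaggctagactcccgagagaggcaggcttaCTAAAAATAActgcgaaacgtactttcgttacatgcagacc
Zfp36l1 upstream peak, chr12:81231817-81231917: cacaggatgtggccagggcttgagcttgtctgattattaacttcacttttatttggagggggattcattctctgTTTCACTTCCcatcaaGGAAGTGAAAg
Zfp36l1 TSS peak on mm9, chr12:81214210-81214310: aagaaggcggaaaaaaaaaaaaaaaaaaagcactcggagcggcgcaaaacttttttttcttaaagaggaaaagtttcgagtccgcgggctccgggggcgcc
Zfp36l2 is represented by its strongest peak, with an AP-1 and a RUNX match, and by the peak nearest to its TSS, with the MEF2 consensus.
Zfp36l2 strongest peak, chr17:84732376-84732476: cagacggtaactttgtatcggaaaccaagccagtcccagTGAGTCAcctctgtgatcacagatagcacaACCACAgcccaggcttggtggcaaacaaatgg
Zfp36l2 nearest peak, chr17:84626111-84626211: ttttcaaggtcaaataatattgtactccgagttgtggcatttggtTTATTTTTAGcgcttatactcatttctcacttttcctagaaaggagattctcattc

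The 3 genes differed in where MEF2A peaks lay. On mm10, Zfp36 (gene ID 22695) spans chromosome 7, 28376784 to 28379228, on the minus strand, and had 29 peaks in the optimal IDR set, the set of peaks that passed a reproducibility threshold. Zfp36l1 (gene ID 12192; chromosome 12, 80107760 to 80113013, minus strand) had 36 peaks, and Zfp36l2 (gene ID 12193; chromosome 17, 84183924 to 84187947, minus strand) had 16. Over all protein-coding genes the median was 11 peaks, with quartiles of 4 and 21 and a maximum of 73. Fewer peaks than at Zfp36l1 were found at 93.7% of genes, fewer than at Zfp36 at 87.7% and fewer than at Zfp36l2 at 62.4%. Some peaks overlap, and joining those that do left 23 regions at Zfp36, 35 at Zfp36l1 and 16 at Zfp36l2. No summit of the optimal set lay inside any of the 3 genes, which are short (2445 bp, 5254 bp and 4024 bp), whereas 34.8% of all genes held one. The mm9 list, described below, had a summit in an exon of Zfp36l1. The paralog Zfp36l3 on chromosome X, which is not among the members, had no peak in the window, and the nearest optimal summit was 613595 bp away.

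**Figure D1:**
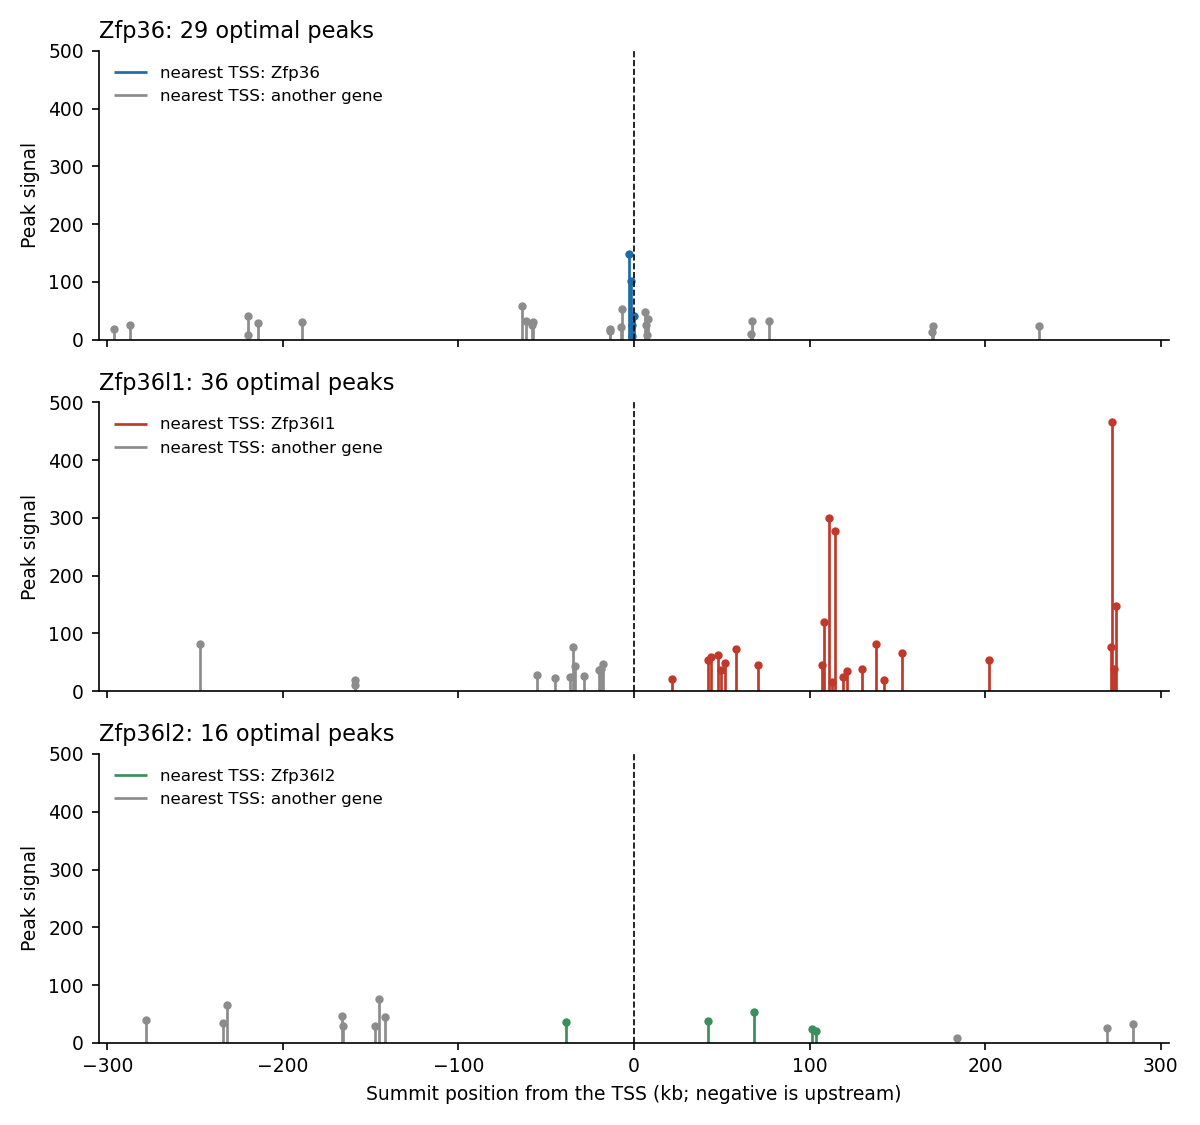
Optimal mm10 peaks around each gene: the x axis gives the summit position from the TSS in kb (negative is upstream) and the y axis the authors' peak signal. Coloured stems are peaks whose nearest protein-coding TSS is the gene itself and grey stems are peaks nearer to another gene. The strongest Zfp36 peaks lie just upstream of the TSS, Zfp36l1 has 24 of 36 peaks downstream with a maximum of 466, and those of Zfp36l2 stay at or below 75.9.

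Gene density around the members was unequal. Within 300 kb, Zfp36 has 22 other protein-coding TSSs, Zfp36l1 has 2 and Zfp36l2 has 1, against a median of 9 over all genes. Fewer neighbours than Zfp36 were counted for 83.4% of genes, fewer than Zfp36l1 for 7.23% and fewer than Zfp36l2 for 3.21%. Of the 29 peaks at Zfp36, only 5 had the Zfp36 TSS as the nearest one, and 18 lay within 10 kb of the TSS of another nearest gene. Zfp36l1 was the nearest TSS for 24 of its 36 peaks and Zfp36l2 for 5 of its 16. A nearest TSS is a matter of position and does not show which gene a bound site acts on.

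**Figure D2:**
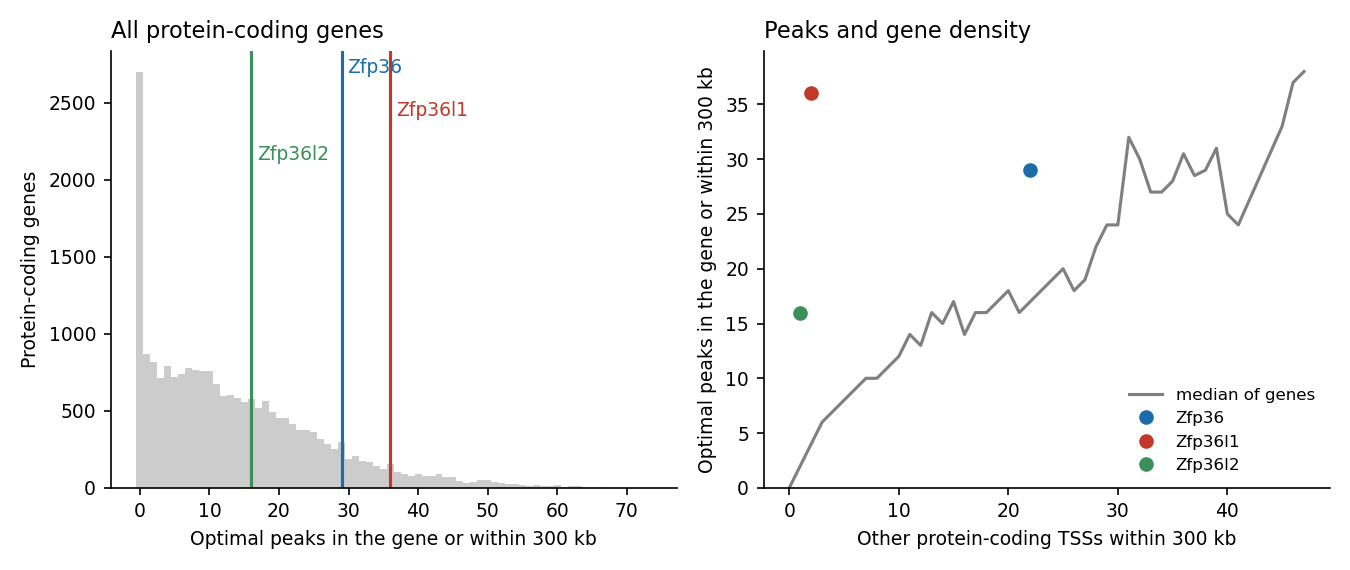
The histogram gives the number of optimal peaks in the gene or within 300 kb for all 21536 protein-coding genes, with the 3 members as vertical lines at 29, 36 and 16. The second panel plots that number against the count of other protein-coding TSSs within 300 kb, with the median of genes at each count as a line, and all 3 members sit above the line.

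In the mm10 optimal set Zfp36 was the only member with a peak within 10 kb of its TSS; the mm9 list had such peaks at Zfp36l1 and the conservative set had 1 at Zfp36l2. Zfp36 had 1 peak within 1 kb of the TSS, where 28.4% of all genes had at least 1. Within 10 kb it had 11, where 42.6% of all genes had at least 1. Only 5 genes of 21536, including Zfp36, had 11 or more summits within 10 kb (0.0232%), and 2 of them had more. Several of the Zfp36 summits lie in overlapping intervals, so the 11 peaks form 9 separate regions. The summits at -1390 and 7622 were among the weakest of the set, at ranks 31446 and 31222 of 31497. Within 10 kb Zfp36 had 8 summits in the conservative set and 6 in the mm9 list. The share of genes with as many was computed only for the optimal count of 11. The 5 optimal peaks nearest to the Zfp36 TSS were all upstream, at positions -146, -1190, -1390, -1910 and -2953.

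The strongest Zfp36 peak, at -2953 (chromosome 7, 28382101 to 28382281), had a signal of 149 and rank 1172 of 31497. The strongest overlapping interval ranked 1325 in the replicate 1 list and 1137 in the replicate 2 list, so both replicates placed it near the same point. Its neighbour at -1910 had a signal of 102, rank 2540, and replicate ranks of 2301 and 3145. The peak beside the promoter, at -146 (28379194 to 28379553), was weaker, with a signal of 41.5 and rank 12020. Replicate 2 placed that promoter peak higher, at rank 9811, than replicate 1, at 21911. The pair at -1190 and -1390 overlap each other and had signals of 25.4 and 6.55. Both met the same replicate 1 interval at rank 9694 and the same replicate 2 interval at rank 106150, and neither was in the conservative IDR set.

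The rest of the strong peaks around Zfp36 lay beside other genes. The third strongest, with a signal of 58.1, fell inside Gmfg, an actin regulator gene of blood cells, 63761 bp upstream of Zfp36. Its replicate ranks were far apart, at 37342 in replicate 1 and 4453 in replicate 2. The fourth lay inside Med29, which encodes a Mediator subunit, at -6913 with a signal of 53.1 and replicate ranks of 10120 and 7346. The fifth, at 6263 bp downstream of the Zfp36 TSS, was 284 bp from the TSS of Plekhg2, with a signal of 48.2 and replicate ranks of 11037 and 9830. In the 300 kb window as a whole the Zfp36 signals ran from 6.55 to 149 with a median of 25.6, below the median of 34.9 of the optimal set, and 8 of the 29 peaks were in the stronger 50% of that set.

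By likeness of pattern, the gene closest to Zfp36 was Junb, which encodes an AP-1 subunit. Likeness was taken as the same number of optimal summits within 10 kb and the nearest strongest signal among them, over the 1 pooled peak set, on chromosomes without a member. Junb also had 11 summits, with a strongest signal of 130 at rank 1553, and it was the only gene with that count on those chromosomes. The match rests on the optimal count, and in the conservative set Zfp36 had 8 summits within 10 kb. For Zfp36l1 and Zfp36l2 the measure names no gene, since they had no peak within 10 kb, a state shared with 10098 genes on other chromosomes.

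Zfp36l1 had the strongest peak of the 3 genes, and it was far from the promoter. This peak lies 272427 bp downstream of its TSS, inside Rad51b, a homologous recombination gene (chromosome 12, 79840448 to 79840771). It had a signal of 466 and rank 4 of 31497, and it also ranked 4 in replicate 1 and 4 in replicate 2. For 99.9% of genes the strongest peak in the same window was weaker or there was no peak, as at 2703 genes. This peak was also the strongest of 2 other genes. RefSeq on mm10 places the summit inside Rad51b, whose own TSS is farther away, whereas GENCODE vM1 on mm9 leaves the same summit outside any gene. It belonged to a group of 4 peaks spanning 2815 bp, and the next strongest of these, at 274325 bp, had a signal of 147 at rank 1194, with replicate ranks of 749 and 1824.

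A second group of 7 Zfp36l1 peaks stood between 107334 and 121536 bp downstream, outside any annotated gene. Its strongest peak, at 111138 bp (80001760 to 80002033), had a signal of 299 at rank 152, with replicate ranks of 201 and 137. The next, at 114436 bp (79998453 to 79998655), had a signal of 277 at rank 219, with replicate ranks of 192 and 255. A further peak at 108199 bp had a signal of 120 at rank 1813, and replicates ranked it 2042 and 1814. The 5 strongest Zfp36l1 peaks all ranked 2042 or better in both replicates, which differed in the order of the second and the third and of the fourth and the fifth. All 5 had Zfp36l1 as the nearest protein-coding TSS. With ranks 4, 152 and 219, Zfp36l1 had 3 of the 1000 strongest peaks of the set in its window, and 23.3% of all genes had at least 1 of these. Zfp36 and Zfp36l2 had none.

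Another, weaker group of 5 Zfp36l1 peaks spanned 41983 to 52025 bp downstream, inside Gm36660, a noncoding RNA gene, and its highest signal was 63.4. Peaks were grouped where neighbouring summits lay within 5 kb, a distance chosen after the positions were known. Upstream of Zfp36l1 there were 12 peaks, all nearer to another protein-coding TSS: 9 to Gm52006, 2 to Actn1, the alpha-actinin gene, and 1 to Dcaf5, a ubiquitin ligase adaptor gene. The RefSeq TSS of Gm52006, at 80117419, lies just upstream of that of Zfp36l1, at 80113013. With the mm9 annotation Zfp36l1 was the nearest TSS for 28 of its 29 mm9 peaks, including those at -17867, -33617 and -35027. The strongest of the 12 upstream mm10 peaks lay inside Dcaf5 at -247443 with a signal of 82.3 and replicate ranks of 3630 and 3989. Zfp36l1 signals ran from 10.4 to 466 with a median of 45.5, and 26 of its 36 peaks were in the stronger 50% of the optimal set. All 36 lay beyond 10 kb of any protein-coding TSS.

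Zfp36l2 had the fewest peaks of the 3 genes and the weakest best peak. Thada, a large gene named for its rearrangement in thyroid adenomas, contained 8 of the 16. The strongest was 1 of these, 145156 bp upstream (chromosome 17, 84332923 to 84333282), with a signal of 75.9 at rank 4279 and replicate ranks of 6741 and 4292. The second, also in Thada at -231980, had a signal of 64.7 and replicate ranks of 6387 and 5941. The third, at 68136 bp downstream and outside any gene, had a signal of 52.8 at rank 8051. Replicates disagreed on this downstream peak: replicate 1 ranked it 2261, above all other Zfp36l2 peaks, and replicate 2 ranked it 13440. The fourth and the fifth, in Thada, had signals of 46.1 and 44.7. Zfp36l2 signals ran from 8.96 to 75.9 with a median of 35.3, close to the 34.9 of the whole set. A stronger best peak was present at most genes, as only 41.3% had a weaker one or no peak at all.

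The nearest optimal summits to the Zfp36l2 TSS were 38874 bp upstream, in Thada, with a signal of 36.3, and 41931 bp downstream, with a signal of 37.9. A promoter peak was nevertheless present in the conservative IDR set, at -37 from the Zfp36l2 TSS, with a signal of 23.6 and rank 23743 of 28217. The conservative set is not a subset of the optimal set in these files: 23045 of its peaks (81.7%) are in both. The pooled relaxed list, which holds 300000 intervals down to background level, had 15 within 10 kb of the Zfp36l2 TSS, and the 1 at -37 ranked 29285 there.

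Window edges did not cut through a cluster of peaks. For Zfp36 the farthest peak inside the window was at 296073 bp with a signal of 18.5 and the next one outside at 329208 bp with a signal of 21.0. For Zfp36l1 the pair stood at 274325 bp (147) and 322207 bp (27.1). For Zfp36l2 it stood at 284266 bp (32.0) and 322511 bp upstream, where the excluded peak had a signal of 153 at rank 1107, stronger than any Zfp36l2 peak inside.

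The replicates gave these peaks unequal support. Each relaxed replicate list was reduced to its 31497 strongest intervals, as many as the optimal set holds. Intervals of both replicates then overlapped 15 of 29 Zfp36 peaks, 25 of 36 Zfp36l1 peaks and 12 of 16 Zfp36l2 peaks, beside 64.6% of all optimal peaks. For Zfp36, 11 of the other 14 were met by 1 replicate and 3 by neither, and for Zfp36l1, 9 of 11 were met by 1 replicate, all of them by replicate 2. The conservative IDR set contained 17 of the Zfp36 peaks, 28 of the Zfp36l1 peaks and 13 of the Zfp36l2 peaks, beside 73.2% of the optimal set. Only peaks with the same interval and summit in both sets were counted there. Counted on its own, the conservative set had 24 peaks in the window of Zfp36, 30 in that of Zfp36l1 and 17 in that of Zfp36l2. Across peaks, replicate ranks correlated with a Spearman coefficient of 0.80 at Zfp36l1 (35 peaks with an interval in both lists), 0.55 at Zfp36l2 (14 peaks) and 0.16 at Zfp36 (28 peaks). These are descriptions across peaks that share 2 libraries, and neighbouring peaks of Zfp36 in particular share the same replicate intervals. Neither replicate ranked the Zfp36 peaks higher throughout, with 14 placed higher in each.

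**Figure D3:**
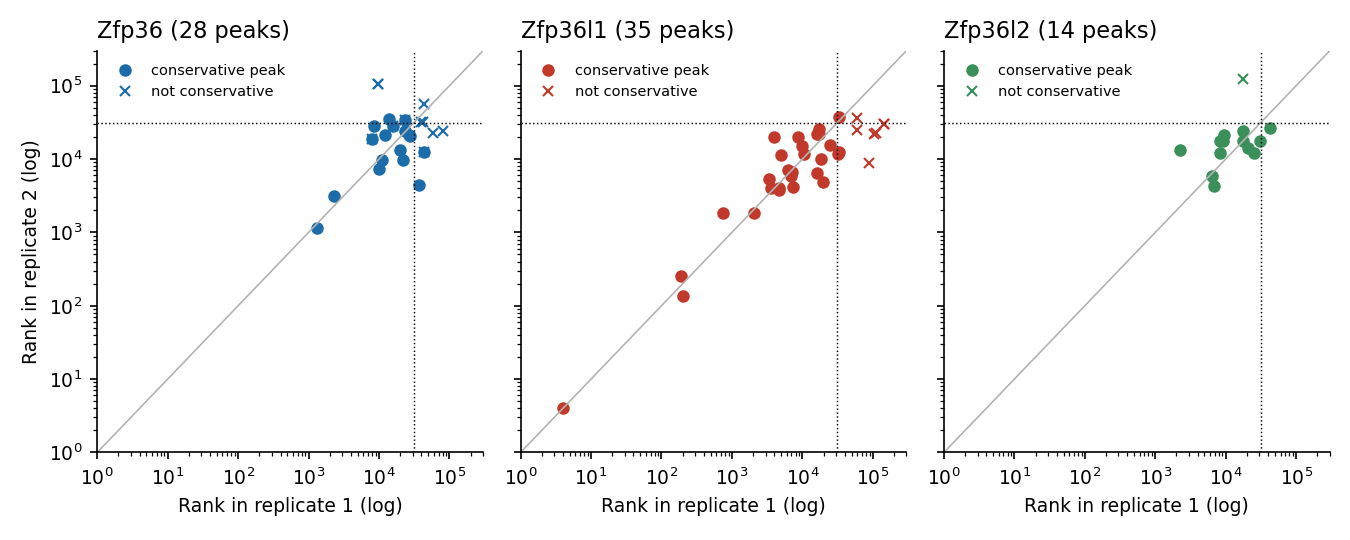
Rank of the strongest overlapping interval in replicate 1 (x axis, log scale) against replicate 2 (y axis, log scale) for each optimal peak met in both lists. Circles are peaks also in the conservative set, crosses are not, dotted lines stand at rank 31497 and the grey line marks equal rank. The strongest Zfp36l1 peak lies on the line at rank 4 in both replicates, and the next peaks lie to either side of it.

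On mm9 the deposited list holds 16839 peaks, of which 12 met the rule at Zfp36, 29 at Zfp36l1 and 9 at Zfp36l2. The best ranks were 1062, 3 and 4456, so the order of the members was as on mm10. Distance from the TSS was used to match the builds, with a tolerance of 250 bp and no conversion of coordinates, and 43 of the 50 mm9 peaks had an mm10 counterpart. At Zfp36, 6 mm9 peaks lay within 10 kb of the TSS and all 6 had a counterpart, including the strongest at -2935 and the promoter peak at -119. At Zfp36l2 no mm9 peak lay within 10 kb.

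Zfp36l1 was the exception. The mm9 list had 4 peaks within 10 kb of its TSS, at -260, -2622, -3961 and 3966, and no mm10 counterpart was found for any of them. They were not weak peaks in every case: the 1 at -2622 had rank 4479 of 16839 and an mm9 signal of 92, the 1 at 3966, in an exon of Zfp36l1 and of Gm17591, had rank 7078, the promoter peak at -260 had rank 7527, and the 1 at -3961 had rank 15777. On mm10 the optimal set had nothing from 17917 bp upstream to 21710 bp downstream of the Zfp36l1 TSS. The relaxed lists were also empty around it, from 5686 bp upstream to 13905 bp downstream in the pooled list, from 5726 to 15674 bp in replicate 1 and from 5684 to 13852 bp in replicate 2, although each holds 300000 intervals. The closest pooled interval had rank 117575.

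Such a gap was uncommon. On mm9, 16.5% of protein-coding genes had a summit within 1 kb of a TSS, and 3215 of them could be paired by symbol with an mm10 gene. Of these 3215 genes, Zfp36l1 was 1 of 39 (1.21%) with no pooled relaxed interval within 5 kb of the mm10 TSS, a distance chosen after the Zfp36l1 values were seen. Lack of an optimal summit within 1 kb was more frequent, with 585 genes (18.2%), and within 10 kb it held for 233 genes (7.25%). Any protein-coding transcript TSS counted on mm9, but only the outermost TSS of the gene on mm10. A gene with its mm9 summit at another TSS can therefore enter these counts even where mm10 has the same peak. The mm10 lists were called with a control file and none is named for the mm9 list, and the lists also differ in build and size. The part of these differences in the Zfp36l1 gap was not tested. The statement that Zfp36l1 had no peak within 10 kb therefore holds for the mm10 optimal and conservative sets and not for the mm9 list. The relaxed mm10 lists had 3 (pooled), 2 (replicate 1) and 5 (replicate 2) intervals within 10 kb, the best at ranks 117575, 199978 and 124462.

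**Figure D4:**
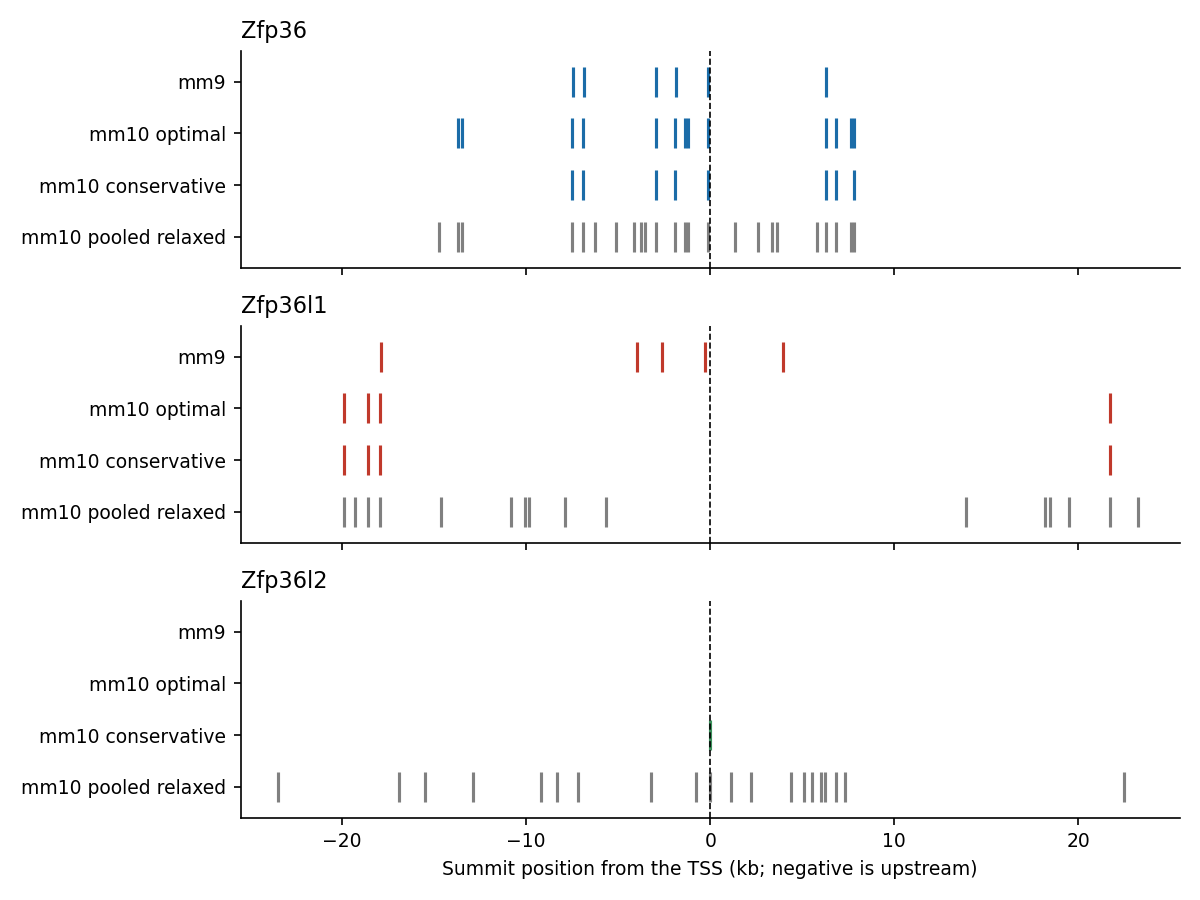
Summits within 25 kb of each TSS (x axis, kb from the TSS, negative upstream) in the mm9 list and in the mm10 optimal, conservative and pooled relaxed lists, 1 row of ticks per list. Zfp36 has summits beside the TSS in all 4 lists, Zfp36l1 has 4 mm9 summits in a stretch that is empty on mm10, and Zfp36l2 has a conservative summit at its TSS, at the dashed line.

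Motifs were counted within 50 bp of the mm9 summits on both strands. The MEF2 core is TA, then 4 letters that are each A or T, then TA, and the MEF2 consensus adds a C or T before it and an A or G after it, so every consensus match is also a core match. The consensus was found in 3 of the 50 member windows, and 7.13% of all 16839 mm9 windows of the same length held it. The core was found in 8 of 50, beside 11.2% of all windows. The strict form with C first and G last was in none of the 50, beside 3.64% of all windows. No window at Zfp36 held the consensus, and 2 at Zfp36l1 and 1 at Zfp36l2 did.

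The consensus of the second strongest Zfp36l1 peak reads CTATTTTTAA at chromosome 12, 81102855 to 81102864, and covers the summit base. In the Dcaf5 peak upstream of Zfp36l1 it reads CTAAAAATAA at 81461453 to 81461462, in an intron of Dcaf5. The Zfp36l2 match reads TTATTTTTAG at chromosome 17, 84626156 to 84626165, in a Thada intron, and also covers the summit. The strongest Zfp36 peak holds the core TAAAAATA at chromosome 7, 29167188 to 29167195, and the same letters recur in the Zfp36 peak beside Med29, at 29171157 to 29171164. The strongest Zfp36l1 peak, rank 3 on mm9, matched none of the 20 motifs, which says only that those letters are not within 50 bp of its summit.

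Elements of other factors were spread over the members as follows. NF-kB sites, searched by the 10-letter consensus, were in 8 of 50 windows (3 at Zfp36 and 5 at Zfp36l1), beside 7.0% of all windows. The E2A E-box CAGCTG was in 9, beside 9.23%. RUNX sites (TGTGGT) were in 7, of which 4 were at Zfp36l1 and 3 at Zfp36l2, beside 13.3%. AP-1 sites (TGANTCA) were in 4, beside 12.2%, and the SP and KLF letters GGGCGG were in 6, beside 8.16%. CCAAT was in 4, beside 9.47%. The ETS letters CCGGAA were in 3, beside 6.40%, including the strongest Zfp36 peak and the second strongest Zfp36l1 peak. The ETS-IRF composite GGAANNGAAA was in 3, all at Zfp36l1, beside 4.39%, and the overlapping IRF letters GAAANNGAAA in 1, beside 3.6%. The octamer ATGCAAAT, the element of OCT factors in B cell genes, was in 2, beside 3.12%, and the CRE TGACGTCA in 1, beside 1.09%. No member window held the SRF CArG box (0.879% of all windows), the PU.1 and SpiB letters GAGGAAGT (3.24%), the EBF1 letters TCCCNNGGGA (1.21%), CACGTG (2.63%), the EGR letters GCGTGGGCG (0.0653%) or the CTCF letters CCNCNAGGNGGC (1.14%). With 50 windows, several of them neighbours, these counts describe the members and were not tested.

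Genes acting with the ZFP36 proteins were examined through 6 lists of 92 genes, all of them measured. An optimal summit within 10 kb of the TSS was found for 73 of the 92 (79.3%), beside 42.6% of all protein-coding genes. No set test was made, and the lists were drawn up with earlier results of these data known. The median rank of the strongest such peak was 10989 over the lists and 13137 over all genes with one.

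The deadenylases that ZFP36 proteins recruit, with their adaptors, had a peak at 15 of 18 genes. The strongest were at the CCR4-NOT subunit gene Cnot10 (signal 202) and at Btg2 (153) and Tob2 (127), whose products bind the complex, and Btg1, Cnot2 and Cnot7 had none. Decapping and 5′ to 3′ decay genes had a peak at 18 of 19, led by Gigyf2 (278), a translational repressor that binds ZFP36, Dcps (129) and Dcp1a (127), and only Lsm1 had none. Exosome genes had a peak at 8 of 11, led by Exosc4 (91.6), Exosc8 (49.9) and Dis3 (38.9), and Exosc1, Exosc3 and Exosc10 had none.

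Other RNA-binding proteins of mRNA stability had a peak at 8 of 14 genes, the lowest share of the 6 lists. Within that list the signals were highest at the Regnase genes Zc3h12c (162), Zc3h12a (159) and Zc3h12d (95.7). Kinases, phosphatases and 14-3-3 proteins that act on ZFP36 had a peak at 8 of 9, among them Mapk14 (103), the p38 kinase gene, and Mapkapk2 (47.8), which encodes the MK2 kinase that phosphorylates ZFP36, and Mapk3 had none. Genes whose mRNAs are reported targets of the family had a peak at 16 of 21, led by Il10 (174), Mcl1 (126) and Tnf (113). The signal of 149 at Zfp36 was exceeded at 6 of the 92 genes: Gigyf2, Cnot10, Il10, Zc3h12c, Zc3h12a and Btg2. Pan2 and Il23a are neighbours and were counted through the same peak.

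**Figure D5:**
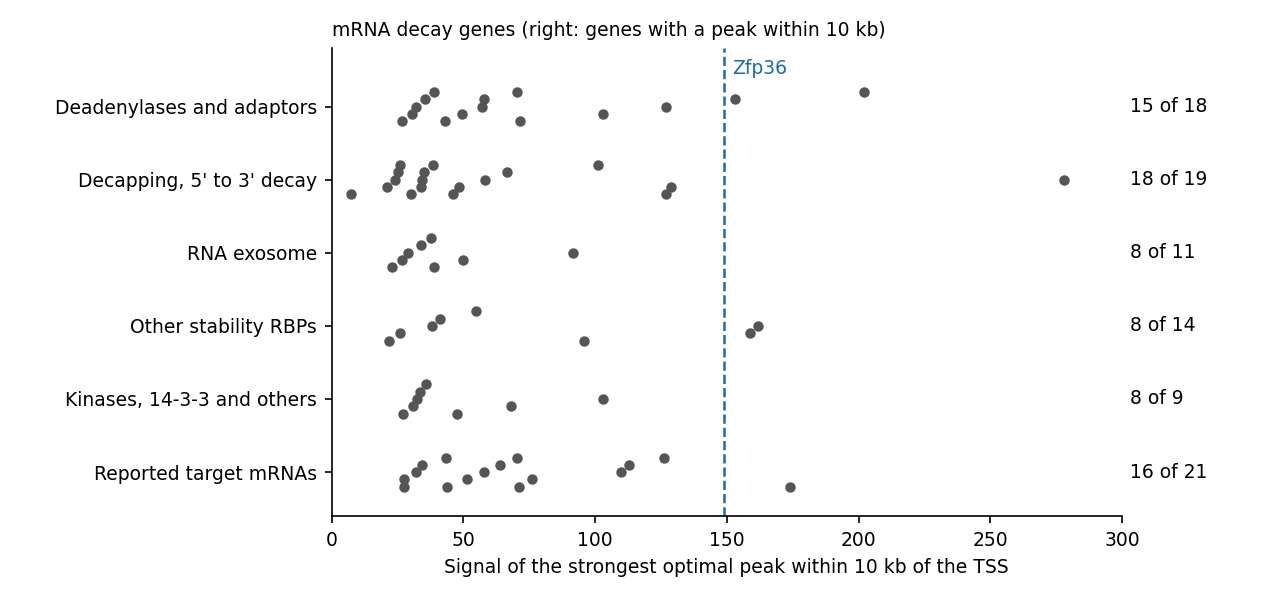
Signal of the strongest optimal peak within 10 kb of the TSS (x axis) for each gene of the 6 lists (rows), 1 point per gene with a peak, and at the right the number of genes with a peak of those listed. The dashed line is Zfp36 at 149, and Zfp36l1 and Zfp36l2 are not drawn because they have no peak within 10 kb.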

How the data were processed

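MEF2A ChIP-seq peak lists of 2 replicates in 1 group were used: 5 on mm10 and 1 on mm9. The signal column deposited by the authors was used, unchanged, to rank peaks within a list. Per the texts deposited with the files, peaks were called both per replicate and on pooled replicates with a control on mm10, and the IDR sets were derived from those lists. The sources used here do not name the peak caller, the aligner or their versions. Genes came from RefSeq GRCm38.p6, with 1 outermost TSS each. Strand came from the RefSeq promoter table for 17492 genes and, by symbol, from GENCODE vM1 for 4044, which gave 21536 of 21900 protein-coding genes. On mm9 all protein-coding GENCODE vM1 transcripts and the NCBIM37 sequence were used. No mm10 sequence was used here. Positions are 1-based. Overlap meant 1 bp or more. The members and lists were chosen with earlier results of these data known. Genes named are the members and Zfp36l3, the gene containing or nearest to each of their 5 strongest peaks, the most alike gene, and in each list the 3 strongest genes plus those lacking a peak if there were at most 4. Other genes were named after their values were seen. A gene that the rule selects is not reported here. The functions were tested on simulated data. Python 3.11.15, numpy 2.4.6, pandas 2.3.3 and matplotlib 3.10.9 were used.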

Additional observations from a re-analysis of the deposited data

How the results depend on the processing

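Peak counts within 300 kb depended most on the list and on the window. In the stronger 50% of the optimal set Zfp36 had 8 peaks and Zfp36l2 had 8, and on mm9, a shorter list, they had 12 and 9; the cause was not tested. A window of 100 kb gave 17 peaks at Zfp36l1 and 3 at Zfp36l2, and a window of 10 kb gave 11 at Zfp36, 0 at Zfp36l1 and 0 at Zfp36l2. To leave out a replicate, the 31497 strongest intervals of the other replicate's relaxed list were taken, with no IDR threshold. These lists are thus of another kind than the optimal set. With each replicate left out in turn, counts ranged from 22 to 27 at Zfp36, from 29 to 39 at Zfp36l1 and from 21 to 22 at Zfp36l2. Best ranks then ranged from 1137 to 1325 at Zfp36, stayed at 4 at Zfp36l1 and ranged from 2261 to 4292 at Zfp36l2, where 2261 without replicate 2 belongs to another peak, at 68136 bp. The Zfp36l1 best rank was 3 on mm9 and 4234 within 100 kb, and that of Zfp36l2 was 8051 within 100 kb, because the strongest peaks lie farther out. No rank within 10 kb could be given for Zfp36l1 or Zfp36l2. Whole relaxed replicate lists met 28 of 29 Zfp36 peaks in both replicates. Searching the MEF2 core gave 2 of 12 windows at Zfp36 and 5 of 29 at Zfp36l1, beside 11.2% of all mm9 windows. Searching whole intervals for the consensus gave 4 of 29 at Zfp36l1, beside 10.3% of all mm9 intervals. With the stronger 50% of peaks, 48 of the 92 listed genes had a peak within 10 kb. The share of all protein-coding genes was not computed for that smaller set, so this count has no background beside it. No paired analysis was possible because the series has 1 group and no result came from a test. Read depth is unknown, so the error from sequencing was not estimated for any value here.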
